A study of Mus musculus with 15 samples.

Results

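The genes described here are 32 genes of glycolysis in mouse embryonic stem cells. They encode glucose transporters, the enzymes of each step from glucose to pyruvate and their tissue isoforms, the bifunctional PFKFB enzymes, lactate dehydrogenase subunits, lactate transporters, and pyruvate dehydrogenase with its kinases. They were chosen by name from the pathway and not by their values. All 32 had a probe on the array, and all 32 passed the filter on dim signals, out of 21368 named genes with a probe and 14441 that passed. To pass, a gene needed a group whose 3 arrays all read its probe well above background. The probe that stood for each of the 32 genes was well above background on all 15 arrays, so no value from these probes is a bound.

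RNA from 5 groups of mouse embryonic stem cells, 3 arrays each, was hybridised to 1-colour Agilent arrays. The groups were wild-type cells, Nat1-null cells, Nat1-null cells with a tet-inducible Map3k3 gene grown without doxycycline (Dox), the same Map3k3 cells grown with Dox, and Nat1-null cells with a tet-inducible EGFP gene grown with Dox. Nat1 is an older name of Eif4g2, which encodes a translation initiation factor related to eIF4G, and Map3k3 encodes a kinase at the top of MAP kinase cascades. All groups but the wild-type lacked Nat1, so the Map3k3 and EGFP cells carried the same loss as their null controls. The Dox dose, the time of exposure, the promoter and the number of clones behind each line are not given in the sources used here, nor is it stated whether the 3 arrays of a group came from separate cultures, so p-values measure the spread between arrays. Below, "induced Map3k3 cells" are those grown with Dox and "uninduced Map3k3 cells" those grown without it.

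Glycolysis splits glucose into pyruvate and yields a little ATP on the way. Hexokinases trap glucose in the cell, and phosphofructokinase makes the first step that commits the sugar to glycolysis. PFKFB enzymes make and remove fructose 2,6-bisphosphate, the strongest activator of phosphofructokinase, so the balance of their isoforms helps to set the rate. Pyruvate is then either reduced to lactate, which leaves through monocarboxylate transporters, or enters mitochondria, where the pyruvate dehydrogenase kinases switch off its conversion to acetyl-CoA. Naive mouse embryonic stem cells use both glycolysis and respiration, and a shift towards glycolysis is known when they move to the primed state.

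Values are log2 signal after subtraction of the 75th percentile of the array, so a difference of 1 is a 2-fold change, and levels are not compared between genes because each probe has its own brightness. The 75th percentile signal was 494 to 614 on the 15 arrays. The share of probes well above background was 42.7 to 53.9%, lowest in induced Map3k3 replicate 2. It split by the row of the slide, at 50.7 to 53.9% in the first row and 42.7 to 49.1% in the second. All wild-type and uninduced arrays, induced replicate 1 and EGFP replicate 3 lay in the first row, and all null arrays in the second. Apart from fits with the row as a block, the part of this gap in the differences below was not tested. Eif4g2 itself read 4.31 ± 0.15 in wild-type cells (SD, n = 3) and 1.71 ± 0.19 in null cells, and the group means of the other null lines lay between 1.56 and 1.62. Where the Eif4g2 probe lies relative to the deleted part is not known here. The Map3k3 probe differed by 0.18 between induced and uninduced cells (adjusted p = 0.236, limma) and was not called. Whether that probe lies within the inducible gene is not known here, so the value is no check of the induction. All 7 embryonic stem cell markers were well above background in every group, with summed levels of 591 to 637 in wild-type, 985 to 1020 in null and 746 to 791 in induced Map3k3 arrays, in units of the 75th percentile. Summed markers of other cell types moved with the groups. Those of trophectoderm read 174 to 178 in wild-type, 7.55 to 19.7 in null, 7.51 to 18.4 in uninduced, 7.08 to 17.8 in EGFP and 325 to 386 in induced Map3k3 arrays, where all 7 measured members rose against uninduced cells. Those of fibroblasts read 94.8 to 101 in wild-type, 6.27 to 6.35 in null and 11.3 to 14.3 in induced Map3k3 arrays. Those of primitive endoderm read 0.489 to 0.527, 0.185 to 0.235 and 0.947 to 1.02 in the same order, and those of neural cells 42.6 to 43.2, 7.25 to 10.9 and 7.5 to 11.2. Of the 6 primitive endoderm markers, 5 were well above background on no null array and 2 on no wild-type array, so these sums are partly background. In wild-type cells the trophectoderm and fibroblast sums were mostly the signal of Krt18 and Tagln, at log2 means of 7.30 and 6.05. On induction the fibroblast marker Thy1 fell 2.55-fold, while Col1a1, Acta2 and Tagln rose and the others were not called. The part of other cell types in the differences below was not tested. In bulk RNA a change in the number of cells of a type cannot be told apart from a change in RNA per cell.

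The promoters of 4 genes on which the results turn are shown here. They are Hk2, a hexokinase gene that rose in null cells, and Eno3, which moved with Pfkfb3. The others are Pfkfb3 and Pfkfb4, which differed in opposite directions between null and wild-type cells. Each line holds the 250 bases before a RefSeq transcript start (GRCm38.p6), written 5′ to 3′ on the strand of the gene. Capitals mark ACGTG on either strand, whose other strand reads CACGT. This motif is the core of the hypoxia response element bound by HIF. The 6 letters CACGTG, an E-box of the kind bound by MYC and USF factors, hold an overlapping match on both strands. The Hk2 window is chr6:82774455-82774704 on the minus strand.
Hk2: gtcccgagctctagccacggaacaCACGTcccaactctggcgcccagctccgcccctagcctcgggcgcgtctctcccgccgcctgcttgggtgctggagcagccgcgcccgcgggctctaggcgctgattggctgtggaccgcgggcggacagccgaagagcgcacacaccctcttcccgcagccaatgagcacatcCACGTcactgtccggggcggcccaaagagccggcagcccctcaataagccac
Pfkfb3 has 2 annotated starts, both on the minus strand, with windows at chr2:11502091-11502340 and chr2:11553930-11554179, given in that order.
Pfkfb3: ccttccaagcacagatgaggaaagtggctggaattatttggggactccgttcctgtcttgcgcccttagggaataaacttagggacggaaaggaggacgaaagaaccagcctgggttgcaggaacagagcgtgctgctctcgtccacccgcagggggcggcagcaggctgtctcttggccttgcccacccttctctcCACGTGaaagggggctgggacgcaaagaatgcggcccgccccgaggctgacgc
Pfkfb3: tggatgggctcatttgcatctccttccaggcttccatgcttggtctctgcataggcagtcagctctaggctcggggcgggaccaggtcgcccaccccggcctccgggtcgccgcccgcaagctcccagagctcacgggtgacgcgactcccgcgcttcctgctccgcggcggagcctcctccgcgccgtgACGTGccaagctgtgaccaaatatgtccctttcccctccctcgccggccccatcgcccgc
The Pfkfb4 window is chr9:108991652-108991901 and the Eno3 window chr11:70656926-70657175, both on the plus strand.
Pfkfb4: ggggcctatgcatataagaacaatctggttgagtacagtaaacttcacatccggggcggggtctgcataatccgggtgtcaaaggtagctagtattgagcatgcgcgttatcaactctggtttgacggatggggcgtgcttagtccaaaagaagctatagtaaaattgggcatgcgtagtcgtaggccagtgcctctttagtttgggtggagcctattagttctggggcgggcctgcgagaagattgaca
Eno3: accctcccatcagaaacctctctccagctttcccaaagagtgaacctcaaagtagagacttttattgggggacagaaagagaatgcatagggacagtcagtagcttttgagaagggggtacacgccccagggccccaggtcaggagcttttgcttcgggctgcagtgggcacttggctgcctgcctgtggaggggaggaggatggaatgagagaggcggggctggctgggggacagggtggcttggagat
The Hk2 window holds ACGTG 2 times, the first Pfkfb3 window holds a CACGTG and the other a single ACGTG, and the letters are not in the windows of Pfkfb4 and Eno3. Over windows of 300 bases, which add 50 bases after the start, ACGTG stood in at least 1 window of 17 of the 31 members that have one (54.8%), against 23.2% of 17492 protein-coding genes. CACGTG stood in 6 of 31 (19.4%), against 8.91%. Genes with several windows have more chances of a match, and the number of windows per gene was not matched between members and all genes. Of the members that rose in null against wild-type cells, 3 of 4 held ACGTG. Of those that fell 2 of 3 did, and of those that did neither 12 of 24. For induced against uninduced Map3k3 cells these counts were 2 of 4, 2 of 5 and 13 of 22. A match describes letters and does not show a bound site.

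The first comparison sets null against wild-type cells, which may also differ in ways other than the loss of Nat1. A gene is said to have risen or fallen if its adjusted p (limma, Benjamini-Hochberg over 14441 genes) was under 0.05 and the difference at least 1.5-fold. In null against wild-type cells, 4 members rose (Pfkfb4, Hk2, Hk1, Pdk2) and 3 fell (Pfkfb3, Eno3, Slc16a3). That is 21.9% of the members against 37.9% of all genes tested, 17.3% rising and 20.5% falling. The share called lay below that of the array as a whole, a difference that was not tested. The members' median absolute difference was 0.35 against 0.45 over all genes, and 24 of 32 stayed within 1.5-fold. In 25 members (78.1%) no null array lay within the wild-type range or the reverse, against 71.9% of all genes. With the adjusted p alone and no fold minimum, 20 members were called (62.5%), against 63.1% of all genes.

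The other main comparisons ask what Map3k3 changes in cells that lack Nat1. In induced against uninduced Map3k3 cells, 4 members rose (Pfkfb3, Pfkfb4, Eno3, Slc2a1) and 5 fell (Pfkp, Ldhb, Pdk4, Aldoc, Pdk2), 28.1% of the members against 17.9% of all genes, of which 12.3% rose and 5.59% fell. Against EGFP cells, which also received Dox, the same 4 members rose, and Ldhb and Pfkp fell, 18.8% of the members against 18.1% of all genes, of which 12.4% rose and 5.67% fell. Without overlap of arrays were 20 members (62.5%) in each of these comparisons, against 50.1% of all genes with uninduced and 49.3% with EGFP cells as the control. With no fold minimum 18 and 17 members were called, where 39.8% and 41.5% of all genes were. Both comparisons share the induced arrays. The median difference of the members was -0.14 against uninduced and -0.21 against EGFP cells, where that of all genes was -0.07 and -0.09.

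No member was called between EGFP cells with Dox and null cells, or between uninduced Map3k3 cells and null cells. Of all genes, 0.00692% (1 gene) and 0% were called in these by limma. With the replicate number as a block, 2 and 40 of all genes were called, and still none of the members. At an unadjusted p under 0.05 there were 2 members and 1050 of all genes in the EGFP comparison (7.27%), and 7 members and 2107 genes in the uninduced comparison (14.6%). Arrays did not overlap in 3 members (9.38%) and 9 members (28.1%), against 11.6% and 21.1% of all genes. The member farthest from 0 in both was Ldhb, at -0.48 (adjusted p = 0.341) and -0.54 (adjusted p = 0.125).

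**Figure D1:**
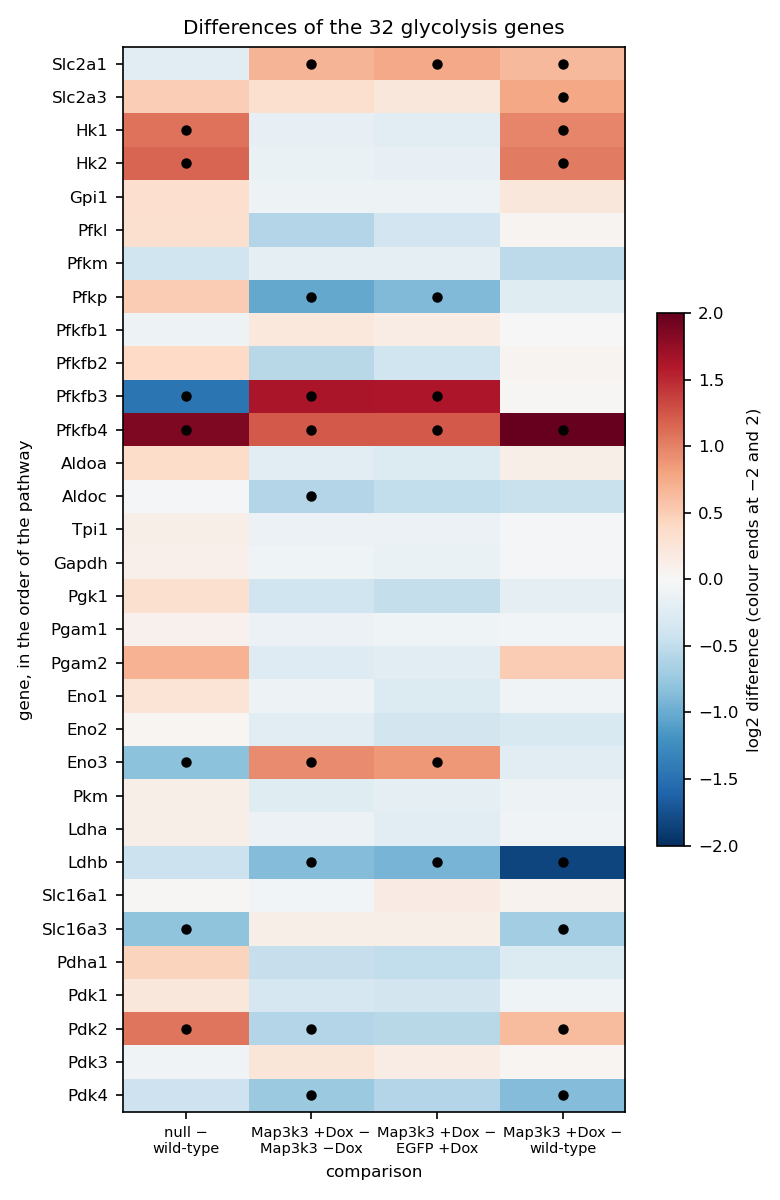
Log2 differences of the 32 glycolysis genes (rows, in the order of the pathway) in 4 comparisons (columns), red for higher and blue for lower in the first-named group, with colour ending at -2 and 2. A black dot marks a gene called at an adjusted p under 0.05 and 1.5-fold: 7, 9, 6 and 9 genes from left to right, with Pfkfb4 the only gene called higher in all 4 columns.

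Of the glucose transporter genes among the members, 1 rose on induction of Map3k3 and none was called in null against wild-type cells. Slc2a1, which encodes GLUT1, the transporter of basal glucose uptake in most cells, read 7.49, 7.27 and 7.34 in induced Map3k3 cells, 6.72, 6.63 and 6.70 in uninduced cells and 6.61, 6.61 and 6.65 in EGFP cells. The induced arrays stood above all others, including wild-type cells at 6.70 to 6.74. The rise was 1.61-fold against uninduced cells (log2 difference 0.68, SE 0.06, adjusted p = 5.68e-06) and 1.68-fold over the EGFP line. In null cells Slc2a1 differed by -0.21 from wild-type and was not called. Slc2a3, which encodes the high-affinity transporter GLUT3, differed by 0.49 between null and wild-type cells (adjusted p = 0.00113) and by 0.32 between induced and uninduced cells, both short of 1.5-fold. In induced Map3k3 cells it stood 1.70-fold above wild-type, with arrays at 7.10 to 7.27 against 6.33 to 6.51.

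Hk1 and Hk2 encode the hexokinases that phosphorylate glucose, Hk1 in most tissues and Hk2 where glycolysis is induced. Hk2 read 3.77, 3.85 and 3.78 in wild-type cells and 5.02, 4.97 and 4.90 in null cells, 2.24-fold higher (log2 difference 1.16, SE 0.06, adjusted p = 1.24e-08). Hk1 read 2.61, 2.52 and 2.27 in wild-type cells and 3.64, 3.45 and 3.59 in null cells, 2.13-fold higher (adjusted p = 1.71e-06). The groups did not overlap for either gene. Neither gene was called between induced and uninduced Map3k3 cells, between induced Map3k3 and EGFP cells, or between uninduced or EGFP cells and null cells. In induced Map3k3 cells Hk2 read 4.87, 4.86 and 4.81 and Hk1 3.52, 3.44 and 3.35. Against uninduced cells Hk2 differed by -0.13 (95% confidence interval -0.25 to 0.00) and Hk1 by -0.16 (-0.38 to 0.06). Against wild-type cells Hk2 stayed 2.06-fold and Hk1 1.96-fold higher. A dimmer Hk1 probe gave 0.74 for null against wild-type cells where the main probe gave 1.09. Gpi1, the isomerase of the next step, differed by 0.33 between null and wild-type cells and by -0.10 on induction.

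Of the phosphofructokinase subunits, 1 of 3 was called, and only in the comparisons of induced with uninduced and EGFP cells. Pfkp, the platelet-type subunit, read 3.90, 4.29 and 3.82 in uninduced and 3.06, 3.08 and 2.80 in induced Map3k3 cells, a fall of 2.03-fold (log2 difference -1.02, SE 0.15, adjusted p = 1.93e-04). The groups did not overlap, and EGFP cells at 3.69 to 4.14 lay with the uninduced ones. A second Pfkp probe gave a smaller difference of -0.44 that missed the threshold (adjusted p = 0.0753 over probes), so the size of this fall depends on the probe. Between null and wild-type cells the Pfkp probes had opposite signs, 0.51 and -0.11. Pfkl, the liver-type subunit, differed by -0.58 on induction (adjusted p = 0.00273) and lay just short of the 1.5-fold limit. Pfkm, the muscle-type subunit, was not called in any comparison and ranged from 1.87 to 2.74 over the wild-type and null arrays, with 1 null array, replicate 2, at the low end.

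In each of the 4 main comparisons the member farthest from 0 belonged to the PFKFB family. Pfkfb3 encodes the isoform whose kinase activity far exceeds its phosphatase activity, and it is known as a driver of glycolysis in proliferating cells. It read 2.04, 1.92 and 1.85 in wild-type cells and 0.56, 0.52 and 0.35 in null cells. The null arrays lay 2.74-fold below wild-type without overlap (log2 difference -1.46, SE 0.10, adjusted p = 1.14e-07). Uninduced Map3k3 cells read 0.26, 0.33 and 0.38 and EGFP cells 0.32, 0.46 and 0.30, next to the null cells. With Map3k3 induced, Pfkfb3 read 2.09, 1.76 and 2.05, a rise of 3.13-fold over uninduced cells (log2 difference 1.64, adjusted p = 1.23e-07) and of 3.04-fold over EGFP cells. The induced arrays overlapped with the wild-type ones, with a difference of 0.03 (95% confidence interval -0.18 to 0.24, adjusted p = 0.803). A second Pfkfb3 probe gave -1.26 for null against wild-type and 1.93 for induced against uninduced cells. It was well above background on 0 null, 0 uninduced and 2 induced arrays, so the sizes of these differences are uncertain.

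Pfkfb4, the isoform known from testis and from hypoxic tumour cells, took another course. It read -0.63, -0.89 and -0.84 in wild-type cells and 1.07, 1.19 and 1.02 in null cells, a rise of 3.67-fold (log2 difference 1.87, SE 0.10, adjusted p = 2.31e-08). Uninduced Map3k3 cells at 1.05, 1.14 and 0.89 and EGFP cells at 0.98, 1.15 and 0.93 shared the level of the null cells. Induction of Map3k3 raised it further, to 2.27, 2.38 and 2.11, which is 2.34-fold above uninduced and 2.35-fold above EGFP cells (adjusted p = 2.34e-06 and 2.15e-06). The induced cells thus stood 8.21-fold above wild-type (log2 difference 3.04, SE 0.10, adjusted p = 5.19e-10), and the order wild-type, null lines, induced cells had no overlap between its steps. Null against wild-type cells and induced against uninduced cells thus differed in opposite directions in Pfkfb3 and in the same direction in Pfkfb4. Pfkfb1 differed by -0.10 and 0.21 in the comparisons of null with wild-type and induced with uninduced cells, and Pfkfb2 by 0.40 and -0.55, none of them called.

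**Figure D2:**
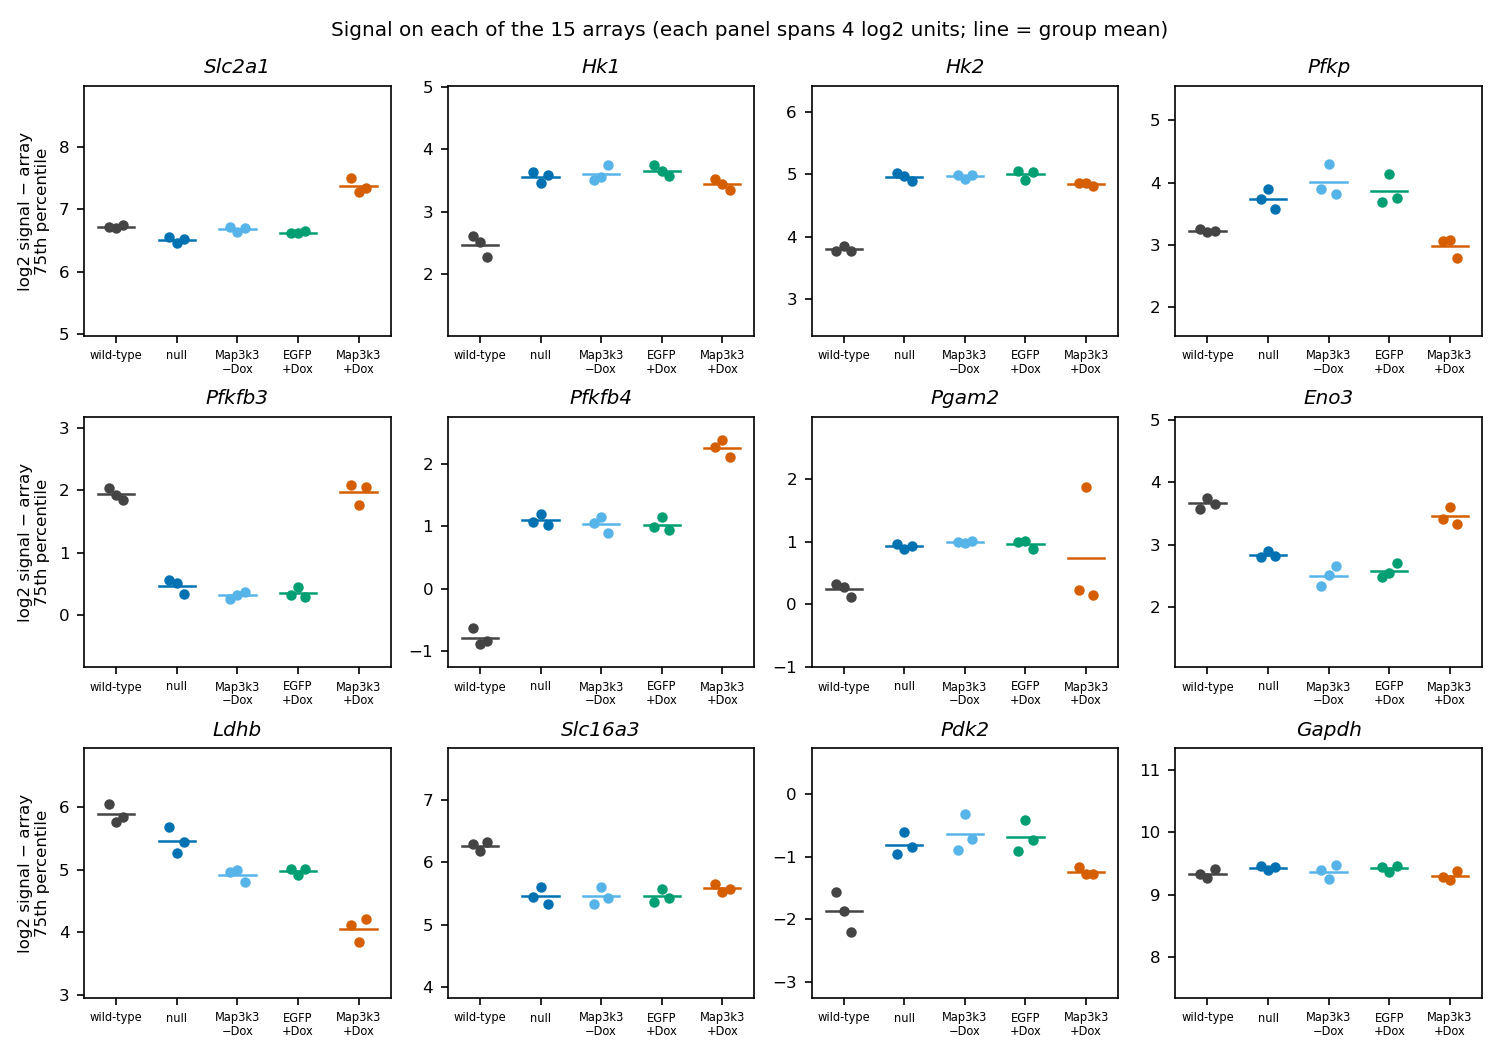
Log2 signal relative to the 75th percentile of the array for 12 glycolysis genes, with 1 point for each of the 15 arrays and a line at each group mean, by group from wild-type to induced Map3k3 cells; each vertical axis spans 4 log2 units from a different start. Pfkfb3 and Eno3 were low in the 3 uninduced or control null groups and near wild-type with Map3k3 induced, Hk1 and Hk2 stayed high in all null lines, Pfkfb4 stood highest in induced cells, and induced replicate 2 stood alone in Pgam2.

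Most steps below hexokinase are served in most cells by a widely expressed form. The 9 genes Gpi1, Aldoa, Tpi1, Gapdh, Pgk1, Pgam1, Eno1, Pkm and Ldha stand for these forms here, and none was called in any of the 4 main comparisons. In null against wild-type cells their differences ran from 0.09 to 0.37, and in induced against uninduced cells from -0.40 to -0.08. Their common sign depended on the scaling, since with quantile normalization 4 of the 9 were above 0 and 5 below in the first comparison, and 6 above and 3 below in the second. The farthest from 0 were Aldoa at 0.37 in null cells (adjusted p = 9.44e-04) and Pgk1 at -0.40 on induction (adjusted p = 0.00339). Gapdh, often used as a reference gene, read 9.34 ± 0.08 in wild-type cells, 9.44 ± 0.04 in null cells and 9.30 ± 0.08 in induced Map3k3 cells (SD, n = 3).

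The tissue isoforms of the same steps changed in their own ways. Eno3, the muscle-type enolase, read 3.58, 3.75 and 3.66 in wild-type cells and 2.81, 2.90 and 2.82 in null cells, a fall of 1.76-fold (adjusted p = 1.47e-05). On induction of Map3k3 it rose 1.93-fold, from 2.34, 2.52 and 2.66 to 3.41, 3.61 and 3.34 (log2 difference 0.95, SE 0.10, adjusted p = 1.41e-05), and it rose 1.83-fold over EGFP cells. The difference from wild-type cells that was left was -0.21 (95% confidence interval -0.42 to 0.00). The summed level of muscle markers was 2.53 to 2.72 in wild-type, 0.184 to 0.564 in null, 0.156 to 0.462 in uninduced and 0.627 to 0.681 in induced arrays. Of the 7 muscle markers, Ckm, Myog and Myod1 were well above background on no array, and Tnnt2 and Des were not called in either comparison (0.33 and -0.24 in null cells, -0.01 and 0.46 on induction). Acta1 fell at least 26.6-fold in null cells and rose at least 7.05-fold on induction, to 5.62-fold below wild-type. Actc1 fell at least 10.7-fold in null cells and was well above background on no induced array. Eno2, the neuronal enolase, was not called in any comparison. Aldoc, the brain-type aldolase, fell 1.5-fold on induction (log2 difference -0.59, adjusted p = 0.00239), but the difference no longer reached 1.5-fold without induced replicate 2 (-0.44), without uninduced replicate 1 or 2 (-0.57 each), with quantile normalization (-0.50) or with the row of the slide as a block (-0.42).

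Pgam2, the muscle-type phosphoglycerate mutase, turned on a single array. It read 0.32, 0.27 and 0.12 in wild-type cells, and 0.97, 0.88 and 0.93 in null, 1.00, 0.98 and 1.01 in uninduced and 0.99, 1.01 and 0.89 in EGFP cells. Induced Map3k3 cells read 0.22, 1.87 and 0.14, so replicates 1 and 3 lay with the wild-type cells and replicate 2 above all other arrays. With all arrays Pgam2 was not called, at 0.69 for null against wild-type (adjusted p = 0.0891) and -0.26 for induced against uninduced cells (adjusted p = 0.567). Without induced replicate 2 it was called in both, at 0.69 (SE 0.06) and -0.82 (SE 0.07). Because this array was singled out after its Pgam2 value was seen, these calls are no test. That array also had the fewest probes above background of the 15, and whether this bears on its Pgam2 value was not tested.

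Among the genes that set the fate of pyruvate, Ldhb lay farthest below wild-type in induced cells. It encodes the lactate dehydrogenase subunit that favours lactate as a substrate in oxidative tissues. It read 6.06, 5.77 and 5.84 in wild-type cells and 4.11, 3.84 and 4.21 in induced Map3k3 cells, a fall of 3.58-fold without overlap (log2 difference -1.84, SE 0.12, adjusted p = 9.80e-08). Null cells, at 5.68, 5.27 and 5.44, differed from wild-type by -0.43, short of 1.5-fold. Against uninduced cells, at 4.96, 4.99 and 4.81, induction lowered Ldhb 1.82-fold (adjusted p = 1.51e-04), and against EGFP cells 1.91-fold. Uninduced and EGFP cells themselves lay below null cells without overlap, with differences of -0.54 and -0.48, though neither was called. Ldha, the subunit that favours the making of lactate, differed by 0.12 in null cells and by -0.12 on induction, neither called.

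Slc16a3, which encodes MCT4, the exporter of lactate in glycolytic cells, read 6.29, 6.18 and 6.33 in wild-type cells and 5.44, 5.60 and 5.33 in null cells, a fall of 1.75-fold (adjusted p = 1.19e-05). Its second probe gave the same difference of -0.81. With Map3k3 induced, the difference from uninduced cells was 0.12 (95% confidence interval -0.08 to 0.33), and induced cells stayed 1.61-fold below wild-type. Slc16a1, which encodes the widely expressed carrier MCT1, differed by 0.02 and -0.06.

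The kinases that inhibit pyruvate dehydrogenase did not move together. Pdk2, the most widely expressed one, read -1.56, -1.87 and -2.20 in wild-type cells and -0.96, -0.61 and -0.85 in null cells, a rise of 2.10-fold (log2 difference 1.07, SE 0.18, adjusted p = 2.97e-04). On induction of Map3k3 it fell 1.51-fold (log2 difference -0.59, adjusted p = 0.0234), and this call was lost without induced replicate 2 (adjusted p = 0.0562) or 3 (adjusted p = 0.0597), without uninduced replicate 2 (adjusted p = 0.0912) and with the row of the slide as a block (adjusted p = 0.0866). Pdk4, the kinase raised by fasting and fat use, fell 1.68-fold on induction (adjusted p = 0.00113) and lay 1.82-fold below wild-type in induced cells. Pdk1, a HIF target, and Pdk3 were not called in any comparison. Pdha1, the catalytic subunit that these kinases phosphorylate, differed by 0.45 in null cells (adjusted p = 0.00375) and by -0.46 on induction (adjusted p = 0.00679), both short of 1.5-fold.

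Compared with wild-type cells, induced Map3k3 cells had 6 members higher (Pfkfb4, Hk2, Hk1, Slc2a3, Slc2a1, Pdk2) and 3 lower (Ldhb, Pdk4, Slc16a3). This is 28.1% of the members against 38.3% of all genes, of which 18.4% were higher and 19.9% lower. Without overlap of arrays were 15 members (46.9%), against 70.7% of all genes, and with no fold minimum 13 were called (40.6%), against 61.7%. Thus Pfkfb3 and Eno3, which differed between null and wild-type cells, were not called here, whereas the hexokinases, Pfkfb4, Pdk2 and Slc16a3 still differed from wild-type. For Pdk2 and Pdk4 the calls were lost with the slide as a block (adjusted p = 0.223 and 0.0581), and Pdk2 fell short of 1.5-fold without wild-type replicate 3 (0.48). The slides bear on this comparison because all wild-type arrays were on one slide and all induced ones on the other.

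The comparisons of null with wild-type and of induced with uninduced cells share no arrays, so their differences can be set against each other. Of the 7 and 9 members called in them, 4 were called in both. Pfkfb3, Eno3 and Pdk2 had opposite directions, and Pfkfb4 the same. Across the 32 members the Pearson correlation of the differences was -0.22 and Spearman's rho -0.26, and across all 14441 genes they were -0.49 and -0.36. Over all genes, 1656 were called in both and 1400 of them had opposite directions. These correlations are across genes, which are not independent replicates, and are given as a description.

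**Figure D3:**
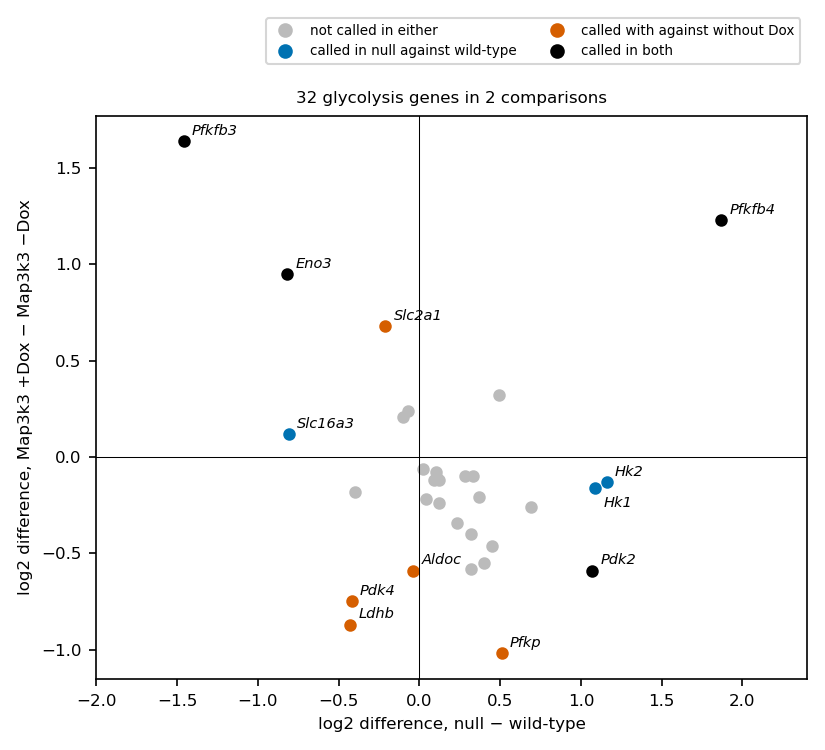
Log2 difference of null minus wild-type cells (horizontal) and of induced minus uninduced Map3k3 cells (vertical) for each of the 32 glycolysis genes, coloured by where the gene was called. Pfkfb3 and Eno3 lie upper left and Pdk2 lower right, with opposite directions, and Pfkfb4 lies alone at the upper right at 1.87 and 1.23.

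Ratios of isoform genes within an array do not depend on the scaling of that array by a constant. For 10 isoform pairs in 3 comparisons each, 30 differences of the log2 ratio were tested by two-sided exact permutation of arrays, which with 3 arrays against 3 cannot give a p below 0.1 (0.2 after Benjamini-Hochberg adjustment), so none could pass. The ratio of Eno3 to Eno1 differed by -1.10 between null and wild-type cells, by 1.05 between induced and uninduced cells and by 1.16 between induced and EGFP cells, without overlap each time. For Ldhb to Ldha these differences were -0.55, -0.74 and -0.71, all downward and without overlap. For Slc2a1 to Slc2a3 they were -0.70, 0.36 and 0.52. The ratio of Slc16a3 to Slc16a1 differed by -0.83 in null cells without overlap, and by 0.18 on induction, where the arrays overlapped. Hk2 to Hk1 differed by only 0.07, 0.03 and 0.06 with overlapping arrays. A p of 0.1 here only restates that the arrays did not overlap, so it does not single out a pair. Eno3 to Eno1, Ldhb to Ldha and Slc2a1 to Slc2a3 had no overlap in all 3 comparisons. In null against wild-type cells, the same held for Slc16a3 to Slc16a1, Aldoc to Aldoa, Pgam2 to Pgam1, and Pfkp and Pfkm to Pfkl. The comparisons with uninduced and with EGFP cells share the induced arrays.

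**Figure D4:**
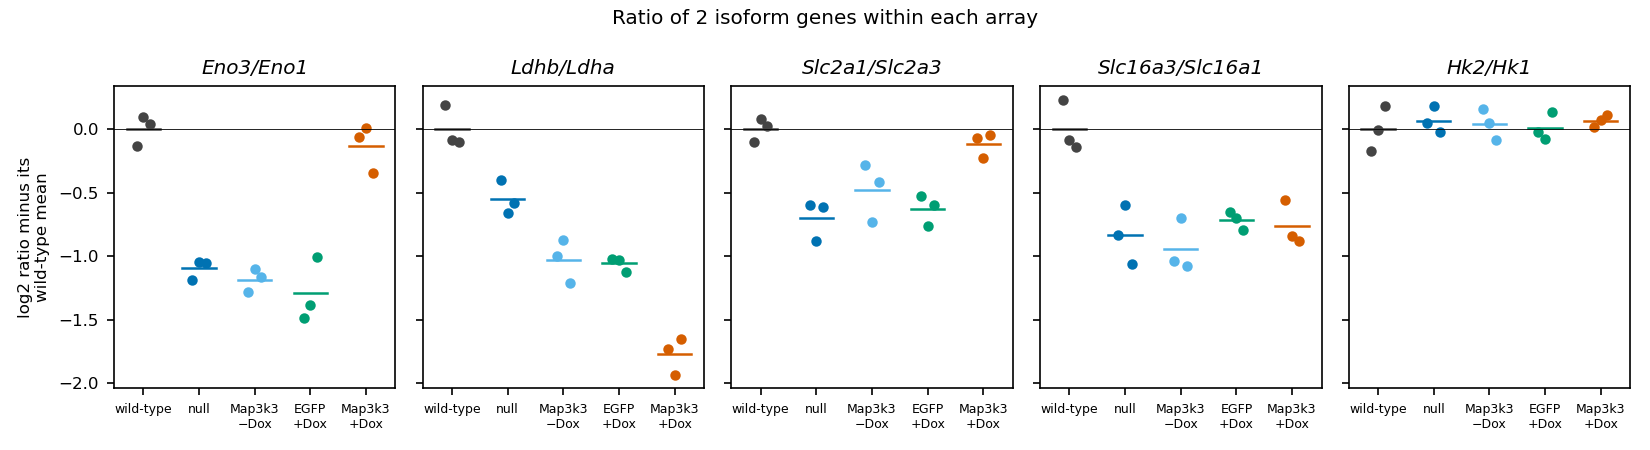
Log2 ratio of 2 isoform genes on each of the 15 arrays, minus the wild-type mean of that ratio, for 5 pairs, with a line at each group mean. Eno3/Eno1 dropped by 1.10 in null cells and lay near the wild-type line with Map3k3 induced, Ldhb/Ldha was lowest in induced cells, and Hk2/Hk1 stayed near 0 in every group.

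Other genes of sugar use were measured beside the 32. Of 22 further glycolysis and hexose genes measured, 7 rose and 5 fell in null cells, and 0 rose and 1 fell on induction of Map3k3, with median differences of -0.04 and -0.15. That is 54.5% and 4.55% of the list, against 37.9% and 17.9% of all genes, and neither gap was tested. The 4 farthest from 0 in null cells were Mpc1, a subunit of the mitochondrial pyruvate carrier, which rose 2.65-fold, the fructose transporter gene Slc2a5, which fell 2.64-fold, Ldhd, a D-lactate dehydrogenase, which fell 2.24-fold, and the transporter gene Slc2a6, which fell 2.07-fold. On induction the transporter gene Slc2a8 fell 1.68-fold. Of 11 pentose phosphate pathway genes 3 fell in null cells (27.3%, against 37.9% of all genes), and none was called on induction, where 17.9% of all genes were. Those that fell were Prps2 and Prps1, which make phosphoribosyl pyrophosphate, by 2.93-fold and 1.76-fold, and Tktl1, a relative of transketolase, by at least 1.15-fold. Of 13 genes of gluconeogenesis and glycogen, 3 rose and 2 fell in null cells (38.5%, close to the 37.9% of all genes), with Fbp1, a fructose bisphosphatase, down at least 4.43-fold and Slc37a4, the glucose 6-phosphate carrier, up 2.44-fold. On induction Fbp2, the muscle-type fructose bisphosphatase, rose at least 6.49-fold, and Pcx, pyruvate carboxylase, fell 1.67-fold, 15.4% of the list against 17.9% of all genes. Of the 6 measured genes of the pyruvate dehydrogenase complex, Pdhx rose 1.68-fold in null cells (16.7% of the list) and none was called on induction.

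Of 25 measured genes of the HIF pathway and its targets outside glycolysis, 4 rose and 7 fell in null cells, and 2 rose and 1 fell on induction, with median differences of 0.21 and 0.04. These are 44% and 12% of the list, against 37.9% and 17.9% of all genes. Epas1, which encodes HIF-2alpha, rose 6.05-fold in null cells, while the targets Car12, a carbonic anhydrase, and Ddit4, an inhibitor of mTORC1, fell 9.39-fold and 3.66-fold. Adm, the vasodilator peptide adrenomedullin, fell at least 2.95-fold. On induction Ddit4 rose 6.33-fold, Egln3, a HIF prolyl hydroxylase, fell 1.51-fold, and Adm rose 2.62-fold by a value for which 1 of the 3 uninduced arrays was well above background. Of 12 measured transcription factors known to act on glycolysis genes, 2 rose and 2 fell in null cells (33.3%, against 37.9% of all genes). Tfcp2l1 and Esrrb, factors of naive pluripotency, rose 8.95-fold and 2.19-fold, and Mycn and Mlx fell 3.58-fold and 1.52-fold. On induction Myc rose 1.72-fold, while Mycn and Esrrb fell 2.15-fold and 1.53-fold, 25% of the list against 17.9% of all genes.

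The position of the arrays bears on the first comparison. Wild-type and null arrays shared a slide but lay in different rows of it, and 1 array of a null line, EGFP replicate 3, lay in the same slide and row as the wild-type arrays. It read 5.04 for Hk2, 3.57 for Hk1, 0.93 for Pfkfb4, 0.30 for Pfkfb3, 2.71 for Eno3, 5.43 for Slc16a3 and -0.73 for Pdk2. Each value lay outside the wild-type range on the side of the null cells. For the comparison of induced Map3k3 with EGFP cells, 2 arrays of each lay together in a row of the second slide. Within that row the differences were 1.51 for Pfkfb3, 1.18 for Pfkfb4, 0.96 for Eno3, 0.70 for Slc2a1, -0.95 for Ldhb and -0.97 for Pfkp. Induced replicate 1 shared a row with the 3 uninduced arrays, and there the differences were 1.77, 1.24, 0.90, 0.81, -0.81 and -0.94 in the same order of genes.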

How the data were processed

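Arrays were scanned and read by the authors with Agilent Feature Extraction 11.5.1.1 (protocol GE1_1105_Oct12), per the file headers. The deposited intensity used here is the processed green signal, which that software had corrected for background. It was turned into log2, spots of a probe were averaged without outlier spots, and each array's 75th percentile over 55681 probes, controls left out, was subtracted; no spot was saturated. The authors' deposited log2 values matched these (r = 1 on every array). Probes received symbols from RefSeq accessions, and the brightest passing probe stood for its gene (8 of the 32 genes had more than 1). A limma 3.58.1 model (R 4.3.3) with a mean for each of 5 groups was fitted to all 15 arrays with 10 residual degrees of freedom, after a check on simulated data. Per-array values are given for members that changed at least 2-fold, other members by range or as examples of their role, and from each further list at most the 4 called genes with the largest difference per comparison; the values of some further members and of Pgam2 were chosen after they were seen. Members and lists were chosen with earlier results of these data known. A fold given as "at least" sets the brighter group against the lowest signal above background of the dimmer arrays. Equal replicate numbers deviated together in the Map3k3 comparisons (correlations of 0.17, 0.34 and 0.26 with uninduced and 0.11, 0.34 and 0.20 with EGFP cells). They also did among the other null lines (0.29, 0.63 and 0.42 for uninduced with null cells, 0.26, 0.58 and 0.39 for EGFP with null cells), but not for wild-type cells (-0.03, 0.01 and 0.01 with null cells). Replicates 1 and 3 of different null lines deviated together as well (0.21 and 0.23 for uninduced with null cells, 0.19 and 0.15 for induced with EGFP cells). Replicate 2 ran against both (-0.39 and -0.47 for uninduced with null cells). These data thus mainly set replicate 2 of the null lines apart, and pairing by number is neither shown by them nor given by the labels. The number of arrays limits the precision.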

Additional observations from a re-analysis of the deposited data

How the results depend on the processing

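Without the 1.5-fold minimum, 20 members were called in null against wild-type cells, 18 in induced against uninduced Map3k3 cells and 17 in induced Map3k3 against EGFP cells, where 63.1%, 39.8% and 41.5% of all genes were. Leaving out 1 array at a time gave 7 to 8, 7 to 11 and 6 to 8 called members, 8 to 9 against wild-type, and 0 in both comparisons among the null lines. With the replicate number as a block the members called were 7, 9, 6, 9, 0 and 0, as without it, while over all genes the uninduced Map3k3 and null cells differed in 40 genes with the block and 0 without. Each called member was recomputed under each alternative, which kept direction and call in 481 cases and direction alone in 15. These 15 concern Aldoc, Pdk2 and Pdk4 in induced Map3k3 cells. Some alternatives left the members' differences unchanged by design, so the 481 cases are not that many separate checks. The authors' values equal those used here, and a looser or stricter signal filter kept the same probe for every member. The mean of passing probes could differ only for the 8 members with more than 1. The normexp background, computed on median signals, lost Pdk2 and Pdk4 against uninduced cells (-0.42 and -0.50) and Pdk2 against wild-type (0.54), all short of 1.5-fold. The ratio of Pfkp to Pfkl in null against wild-type cells turned from 0.19 to -0.12 with the mean of passing probes, since the Pfkp probes disagree. Probe brightness limits what can be seen: Pdk4, Pdk2, Slc16a1, Pfkfb2 and Eno2 lay below the 75th percentile on every array.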
